A study of Rattus norvegicus with 27 samples.

Results

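The ligands and receptors of axon guidance were followed through the differentiation of rat oligodendrocyte precursor cells (OPCs) and under interferon gamma (IFNγ). The set holds every gene of the array table whose symbol begins with Sema, Plxn, Efna, Efnb, Epha, Ephb, Slit, Robo, Ntn or Unc5, which gave 56 of 14217 genes. By role, 28 are ligands and 26 are receptors. The other 2, Unc50 and Unc5cl, share the letters of the Unc5 receptors but are not netrin receptors, and they are kept in the counts because the rule takes them. Each gene is represented by its brightest probe set, and its signal is on the log2 scale of the deposited RMA values, so that a difference of 1 is a 2-fold change.

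The OPCs came from the cortices of early postnatal rats bred from Sprague Dawley dams, were selected with A2B5 beads and were expanded in PDGF, the growth factor that keeps them dividing. The 9 groups were PDGF at 0 h, T3 at 8, 24, 48 and 96 h, and T3+IFNγ at the same 4 times. T3 is thyroid hormone, which drives OPCs into oligodendrocytes, and IFNγ is the cytokine of activated T cells. No genotype is given, and the cells of all groups share the PDGF expansion. Each group had 3 arrays, one from each of 3 donors, and p-values refer to the spread among these. T3 against PDGF asks how the genes move during differentiation, and because PDGF was sampled only at 0 h, T3, the change of medium and time in culture cannot be told apart in it. T3+IFNγ against T3 at the same hour asks what the cytokine adds. Both comparisons use the T3 arrays, so a high T3 value raises the first difference and lowers the second, and values of the 2 are set side by side only.

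Axon guidance molecules were named for steering growth cones, and many of them also guide the migration and contact of glial cells. Semaphorins signal through plexins, with neuropilins as co-receptors for most secreted members. Ephrins are bound to the membrane and meet Eph receptors on a neighbouring cell, with signals passing in both directions. Netrins act through Dcc and Unc5 receptors and slits through Robo receptors. In the oligodendrocyte lineage, semaphorin 3A and netrin 1 are known as cues that influence OPC migration, and several transmembrane semaphorins are carried by myelinating cells.

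A member was taken as detected where at least 1 group mean reached 5.99, the median of all values in the table. By this rule 34 of the 56 members (60.7%) were detected, against 10129 of the 14217 genes (71.2%). All 8 plexins, 13 of 17 semaphorins, both B-class ephrins, 3 of 4 B-class Eph receptors and 2 of 3 Unc5 receptors were detected. The families at the other end were the A-class Eph receptors with 2 of 8 (Epha2 and Epha4), the A-class ephrins with 1 of 3 (Efna1), the Robo receptors with 1 of 3 (Robo2), the netrins with 1 of 2 (Ntn1), and the slits with 0 of 3. The 22 members below the limit in every group were Sema3b, Sema3g, Sema4f, Sema4g, Efna4, Efna5, Ntn5, Ntng1, Slit1, Slit2, Slit3, Epha3, Epha5, Epha6, Epha7, Epha8, Epha10, Ephb4, Robo1, Robo3, Unc5a and Unc5cl. Nearest below the limit were Efna4 with a highest group mean of 5.83 and Slit1 with 5.72, and nearest above it were Plxna4 with 6.02 and Epha2 with 6.05. A signal below the limit does not show that a gene was silent, and the signals of different probe sets are not compared with each other here.

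**Figure D1:**
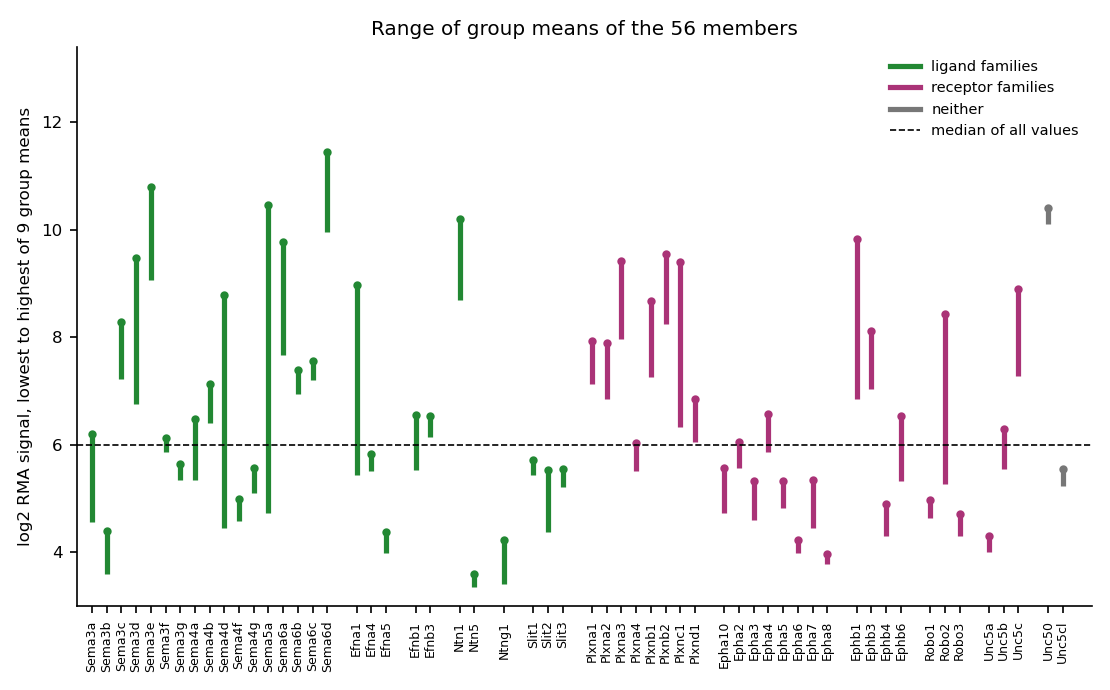
Range of the 9 group means of each of the 56 members on the log2 RMA scale, from the lowest (lower end of the bar) to the highest (dot), by family, with ligands in green, receptors in purple and the 2 genes that are neither in grey. The dashed line is the median of all values, 5.99, and 34 dots reach it. Heights of different genes are not comparable, but the length of a bar shows how far the gene moved, with Sema5a the longest.

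The state of the cultures was read from marker lists. The summed signal of 9 markers of mature oligodendrocytes lay at 11.5 to 11.6 (log2) in PDGF, 16.2 to 16.3 with T3 at 96 h and 15.7 to 15.9 with T3+IFNγ at 96 h. Taken marker by marker, the change with IFNγ at 96 h was larger than in this sum. Its median over the 9 was −1.93, with a range from −4.94 to −0.07, and 6 were called lower. All 6 measured OPC markers were detected. With T3, 1 of them was higher at 24, 48 and 96 h, and 1, 3 and 3 were lower at these times. With IFNγ, 1 was higher at 24, 48 and 96 h. In every group, 8 of 10 vascular markers and Cd3e, Cd3d and Cd8a of the 4 T cell markers were below the limit. With IFNγ, 1 and 2 vascular markers were higher at 8 and 24 h, and 1 T cell marker at 48 and 96 h. With T3, 1 vascular marker was higher at 48 and 96 h. Of 8 astrocyte markers 6 were detected, and 1, 3, 2 and 4 of the 8 were higher with T3 at 8, 24, 48 and 96 h, with 1 lower at 96 h. With IFNγ 1 of the 8 was higher at 24, 48 and 96 h, and 1 was lower at 96 h. Of 9 neuronal markers 8 were detected. With T3, 1 of the 9 was higher at 8 and 24 h, and 2, 5 and 6 were lower at 24, 48 and 96 h. With IFNγ, 1, 1, 2 and 3 were higher at 8, 24, 48 and 96 h and none was lower. The matching shares of all genes are given with the counts of the members. The part of other cell types in the members' results was not tested. Of 12 markers of microglia and macrophages, 10 were detected, and Cx3cr1 and Itgam were not. The Gapdh control probe sets showed 3′ signal above 5′ signal on 3 arrays, all of donor 2 (T3+IFNγ at 8 h, 0.37, T3+IFNγ at 24 h, 0.11, and PDGF, 0.07), against −0.26 to −0.06 on the others. For beta-actin, the T3+IFNγ arrays of donor 2 were also the highest (1.34 at 8 h and 1.47 at 24 h, median of all arrays 0.94), followed by that of donor 2 at 48 h (1.16). For hexokinase, the highest was T3+IFNγ of donor 2 at 48 h (2.91, against 1.93 for T3 of that donor and hour, and a median of 2.38). Results with IFNγ are therefore also given without the T3+IFNγ arrays of donor 2 at 8 and 24 h, and without that at 48 h, where this changes a call.

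With T3 the members moved in both directions, 5 of them at 8 h and between 22 and 24 at the later times. A gene was called where limma's adjusted p, over all 14217 genes, was under 0.05. At 8 h, 4 of the 56 members (7.14%) were higher than in PDGF, against 7.31% of all genes, and 1 (1.79%) was lower, against 5.37%. At 24 h, 15 (26.8%) were higher, against 17.1% of all genes, and 7 (12.5%) were lower, against 17.8%. At 48 h, 13 (23.2%) were higher, against 17.5%, and 11 (19.6%) lower, against 25.7%. At 96 h, 15 (26.8%) were higher, against 23.4%, and 8 (14.3%) lower, against 29.5%. The median change of the members was 0.06, 0.09, 0.07 and 0.08 at the 4 times, and that of all genes 0.01, 0.00, 0.00 and 0.01. In bulk cultures, less RNA per cell and fewer cells of a type cannot be told apart, for these and all later values.

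**Figure D2:**
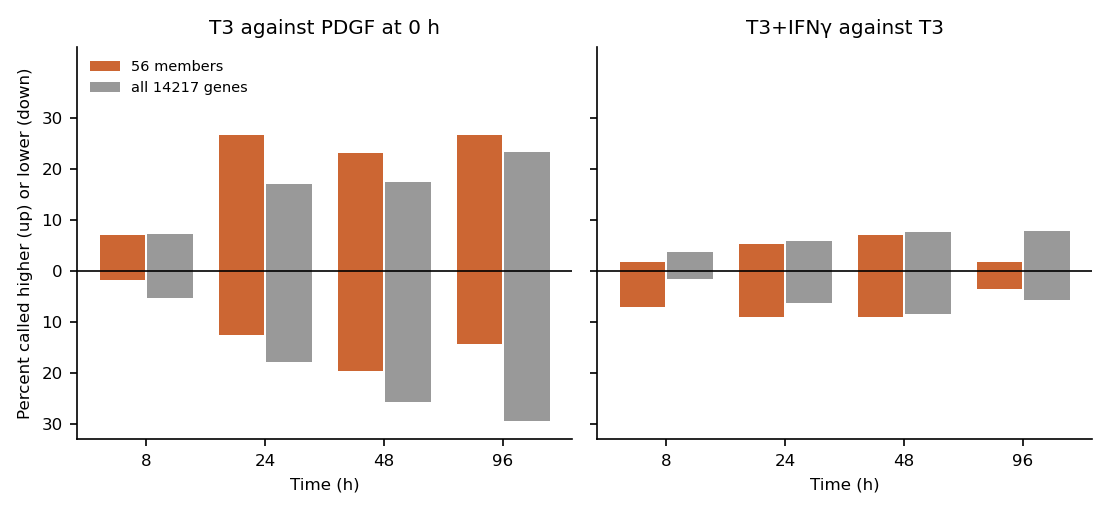
Percent of the 56 members (orange) and of all 14217 genes (grey) called higher (bars upward) or lower (bars downward) at each time, T3 against PDGF at left and T3+IFNγ against T3 at right. Times are evenly spaced. With T3 at 96 h 26.8% of the members were higher and 14.3% lower, and with IFNγ no bar of the members passes 8.93%.

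Counts were also taken by family. Of the 17 semaphorins, 8 rose (47.1%, against 17.5% of all genes) and 4 fell (23.5%, against 25.7%) at 48 h, and 6 rose (35.3%, against 23.4%) and 2 fell (11.8%, against 29.5%) at 96 h. Of the 8 plexins, the receptors of the semaphorins, none was higher at 48 or 96 h, while 5 were lower at 48 h (62.5%, against 25.7%) and 4 at 96 h (50%, against 29.5%), with a median change of −0.57 at both times. All 3 Unc5 receptors were higher at 96 h, although Unc5a stayed below the detection limit. Whether the families differ from one another was not tested.

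Sema5a, a transmembrane semaphorin with thrombospondin repeats, had the largest signal difference among the members. Its signal on the 3 PDGF arrays was 4.63, 4.63 and 4.90, below the detection limit, and with T3 it was 7.75, 6.36 and 6.10 at 8 h. It then reached 10.45, 10.59 and 10.35 at 24 h, stood at 10.33, 10.44 and 10.23 by 48 h, and ended on 9.30, 9.60 and 9.67 at 96 h. Every T3 array lay above every PDGF array from 8 h on, and the highest level was already reached at 24 h. The change was 2.01 at 8 h, 5.74 at 24 h, 5.61 at 48 h and 4.80 ± 0.31 (SE) at 96 h, with an adjusted p of 1.42e-11 (limma). Where 1 group mean lies below the detection limit, as here, a fold is given only as a bound against that limit, and for Sema5a at 96 h it was at least 11.5-fold.

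Sema4d, a transmembrane semaphorin that binds Plxnb1, rose later. Its PDGF arrays stood at 4.54, 4.43 and 4.38, its T3 arrays at 5.38, 5.19 and 5.09 at 24 h, at 8.05, 7.57 and 7.03 at 48 h, and at 8.73, 8.64 and 8.96 at 96 h. The groups did not overlap at these 3 times, but the signal passed the detection limit only from 48 h. At 96 h the rise was 4.33 ± 0.23 (SE), at least 6.89-fold from the limit (limma adjusted p = 7.1e-13).

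Sema3d, a secreted semaphorin, was detected in PDGF at 7.12, 6.32 and 6.85 and reached 8.12, 7.90 and 7.78 at 8 h. By 24 h it stood at 9.24, 9.35 and 9.24, and by 96 h at 9.49, 9.23 and 9.42. It was higher on every T3 array than on any PDGF array, by 1.17 at 8 h, 2.52 at 24 h, 2.71 at 48 h and 2.62 ± 0.19 (SE) at 96 h (6.13-fold, limma adjusted p = 9.23e-11). Its gene lies next to Sema3a, with no protein-coding gene between them in the RefSeq annotation of GRCr8, and Sema3a went the other way. Sema3a, the secreted semaphorin best known as a growth cone repellent, stood at 6.46, 6.06 and 6.05 in PDGF and at 4.84, 4.48 and 4.82 with T3 at 96 h, with no overlap. It was lower at all 4 times, by 0.58 at 8 h, 1.29 at 24 h, 1.15 at 48 h and 1.48 ± 0.17 (SE) at 96 h, where it was below the limit, at least 1.15-fold lower (limma adjusted p = 1.18e-07).

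Among the remaining semaphorins, Sema6a, Sema6d and Sema3e rose and Sema4a fell. Sema6a, a transmembrane semaphorin, was higher by 1.55 at 48 h and 1.16 at 96 h, with PDGF arrays at 7.90, 8.45 and 8.32 and 96 h arrays at 9.24, 9.34 and 9.56. Sema6d, of the same class, was higher by 0.79, 1.25 and 1.21 at 24, 48 and 96 h, and Sema3e, the secreted ligand of Plxnd1, by 0.69, 1.38 and 1.0. Sema4a, a transmembrane class 4 semaphorin, went from 6.54, 6.56 and 6.36 in PDGF to 4.97, 5.74 and 5.32 at 96 h, a fall of 1.14 ± 0.15 (SE) to below the limit, at least 1.41-fold lower (limma adjusted p = 8.55e-07). Small changes were called at 48 h alone for Sema6b (0.36), Sema6c (0.35) and Sema4b (−0.46), and Sema3b, below the detection limit, was lower by 0.69 and 0.72 at 24 and 48 h. Sema3c and Sema3f, both secreted, were detected and called at none of the 4 times, but with donors as blocks Sema3c was higher at 24 h (0.63, adjusted p = 0.0152) and 96 h (0.60, 0.0148) and Sema3f at 48 h (0.21, 0.0491).

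Of the 5 ephrins, Efna1 rose, Efnb1 fell and the others were not called. Efna1, an ephrin held in the membrane by a lipid anchor, read 5.65, 5.50 and 5.16 in PDGF, 6.31, 6.64 and 6.77 with T3 at 24 h, then 7.01, 6.47 and 6.21 by 48 h, and finally 9.28, 8.71 and 8.92 by 96 h. All T3 arrays at these times lay above the PDGF arrays, and the main step came between 48 and 96 h. The rise was 1.14 at 24 h, 1.13 at 48 h and 3.53 ± 0.31 (SE) at 96 h (limma adjusted p = 1.93e-09), from a PDGF mean below the limit, at least 7.87-fold. With donors as blocks Efna1 was also called higher at 8 h (0.81, adjusted p = 0.0245). Its neighbour in the genome, Efna4, with 1 protein-coding gene between them, was not detected and not called. Efnb1, a transmembrane ephrin, fell by 0.48 at 48 h and 0.66 at 96 h, and Efnb3 was called at no time.

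Netrin 1 (Ntn1), a secreted cue, was called only at 24 h. Its PDGF arrays stood at 8.38, 9.20 and 8.97, its T3 arrays at 10.22, 10.35 and 10.02 at 24 h and at 8.47, 8.83 and 8.80 at 96 h. The 24 h arrays lay above all PDGF arrays (change 1.35), and the 96 h arrays lay within their range. Of the slits, secreted ligands of the Robo receptors, Slit2 was higher by 0.94 at 48 h without reaching the detection limit.

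On the receptor side, 4 plexins fell. Plxnc1, the receptor of semaphorin 7A, had PDGF arrays at 7.71, 8.06 and 8.05 and T3 arrays at 5.90, 6.48 and 6.59 at 96 h, with no overlap. It was lower by 0.73 at 24 h, 1.44 at 48 h and 1.62 ± 0.25 (SE) at 96 h (3.07-fold, limma adjusted p = 6.51e-06). Plxnb2, the receptor of several class 4 semaphorins, went from 9.18, 9.85 and 9.63 to 8.16, 8.41 and 8.16, a fall of 1.31 ± 0.16 (SE), or 2.47-fold, at 96 h (adjusted p = 4.29e-07). Plxna2, a receptor of secreted and class 6 semaphorins, went from 7.77, 7.90 and 7.99 to 6.72, 6.98 and 6.84, a fall of 1.04 ± 0.16 (SE), or 2.05-fold (adjusted p = 6.24e-06). Plxna1, of the same class, fell by 0.65 at 48 h and 0.80 at 96 h. Plxna3 was called at 24 h alone, higher by 0.93, but with donors as blocks it was also lower at 96 h (−0.35, adjusted p = 0.0377). Plxnb1 was higher by 0.60 at 24 h and lower by 0.49 at 48 h, the latter not called with median centring (adjusted p = 0.0608). Plxnd1 and Plxna4 were called at no time, but with median centring Plxnd1 was higher at 48 h (0.45, adjusted p = 0.0453).

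The Eph receptors of class B split. Ephb1, a receptor tyrosine kinase for B-class ephrins, rose from 7.30, 7.52 and 7.31 in PDGF to 8.10, 8.07 and 7.88 at 8 h and to 9.25, 8.31 and 8.11 by 24 h. The 48 h arrays read 9.72, 9.96 and 9.80, and the 96 h arrays 9.52, 9.39 and 9.37. All T3 arrays stood above all PDGF arrays, with changes of 0.64, 1.18, 2.45 and 2.05 ± 0.20 (SE) at the 4 times (4.13-fold at 96 h, limma adjusted p = 6.88e-09). With median centring the change at 8 h was 0.59 and no longer called (0.0672). Ephb3, a receptor of the same class, fell from 8.15, 8.15 and 8.02 to 7.27, 7.29 and 6.96 at 96 h, by 0.80 at 24 h, 1.03 at 48 h and 0.93 ± 0.14 (SE) at 96 h (1.91-fold, adjusted p = 3.32e-06). Ephb6, which lacks kinase activity, was higher by 0.58 at 24 h and 1.03 at 48 h. In class A, Epha2 and Epha4 were not called at any time, and the calls fell on Epha7 (0.90, 0.55 and 0.33 at 24, 48 and 96 h) and Epha10 (0.30 at 24 h and 0.60 at 96 h), both below the detection limit.

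Robo2, a slit receptor, rose from below the detection limit. Its arrays stood at 4.80, 5.40 and 5.60 in PDGF, 5.18, 7.01 and 6.96 with T3 at 24 h, then 5.20, 5.37 and 5.21 by 48 h, and finally 8.69, 8.32 and 8.30 by 96 h. At 24 h donor 1 lay within the PDGF range and donors 2 and 3 above it, at 48 h all 3 were back in that range, and at 96 h all 3 lay far above it. The change at 96 h was 3.17 ± 0.38 (SE), at least 5.43-fold (limma adjusted p = 2.49e-07), and that at 24 h was 1.12 with an adjusted p of 0.286 without donor 2 and 0.232 without donor 3. The 2 dimmer probe sets of Robo2 changed by 0.28 (adjusted p = 0.0687) and 0.83 (adjusted p = 1.03e-06) at 96 h. Unc5c, a netrin receptor with a death domain, rose by 0.78, 1.0 and 1.07 at 8, 24 and 96 h and was not called at 48 h, and Unc5b, of the same family, rose by 0.62 at 96 h.

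All 12 results at 96 h given above with a standard error stayed called without any 1 donor. Over all members, 19 of the 23 calls with T3 at 96 h, 17 of 24 at 48 h, 14 of 22 at 24 h and 2 of 5 at 8 h kept an adjusted p under 0.05 whichever donor was left out. The 2 kept at 8 h were Sema5a and Sema3d, and with donors as blocks the number lower at 8 h was 3 in place of 1, with Epha2 and Sema6a added. In that fit Efna1 (0.81, adjusted p = 0.0245) and Ephb6 (0.45, 0.0485) were also called higher at 8 h. Among the losses at 24 h were Plxnc1 (adjusted p = 0.121 without donor 2), Efna1 (0.160 without donor 3) and Sema4d (0.0959 without donor 2).

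**Figure D3:**
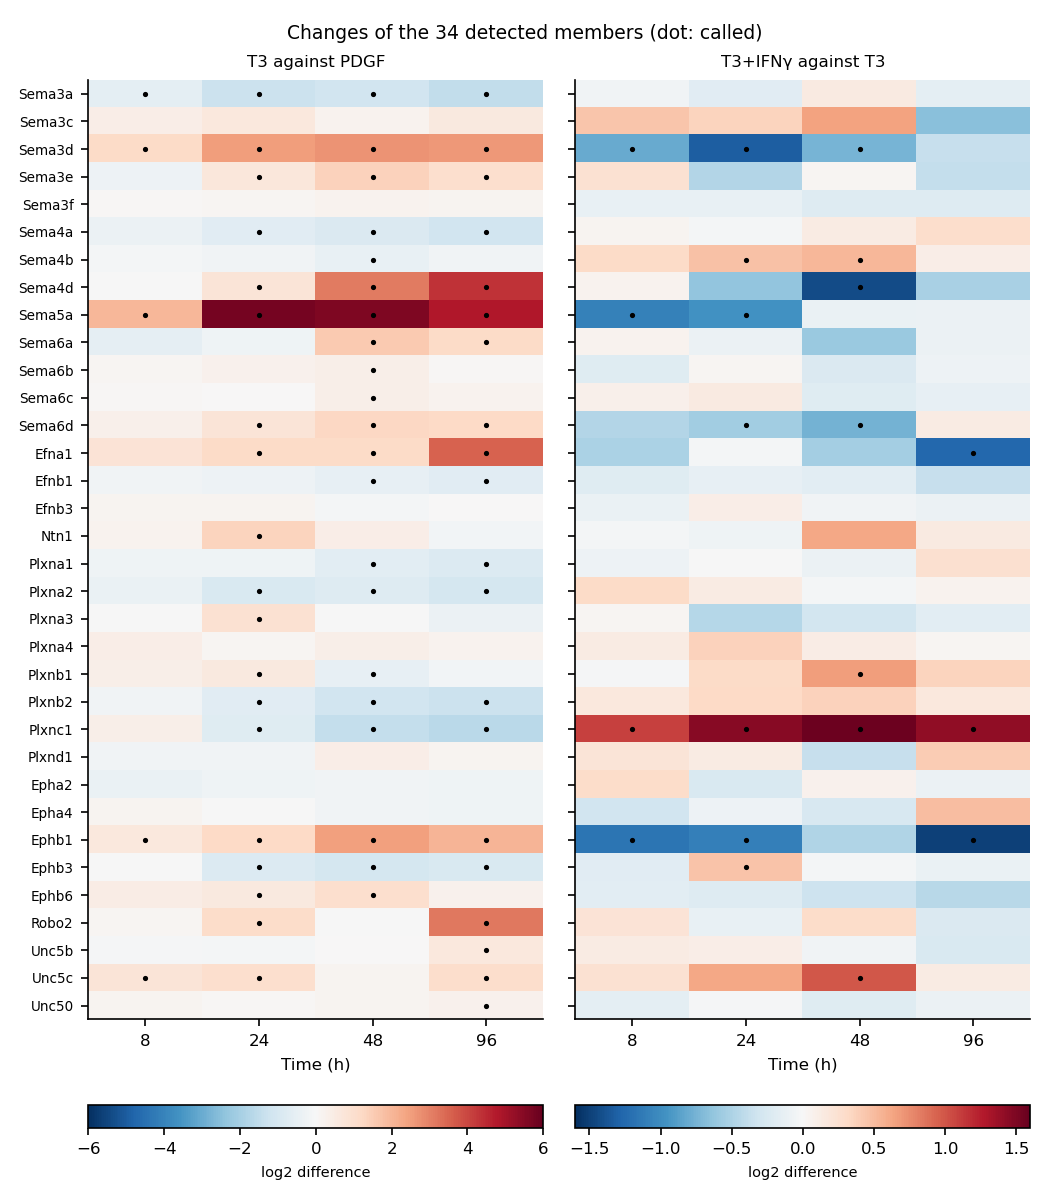
Change of the 34 detected members in log2 units, T3 against PDGF at left (scale from −6 to 6) and T3+IFNγ against T3 at right (scale from −1.6 to 1.6), with time in h across and dots on called changes. The 2 panels share the T3 arrays and have different scales. Sema5a, Sema4d and Efna1 are the deepest red at left, and at right Plxnc1 is red and Ephb1 blue.

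IFNγ changed fewer members than T3 did at each time but 8 h. At 8 h, 1 of the 56 members (1.79%) was higher with T3+IFNγ than with T3, against 3.69% of all genes, and 4 (7.14%) were lower, against 1.58%. At 24 h, 3 (5.36%) were higher, against 5.96%, and 5 (8.93%) lower, against 6.35%. At 48 h, 4 (7.14%) were higher, against 7.58%, and 5 (8.93%) lower, against 8.53%. At 96 h, 1 (1.79%) was higher, against 7.91%, and 2 (3.57%) lower, against 5.63%. In all, 15 members were called at 1 time or more, and each of their called changes had the same sign in 3 of 3 donors. The arrays of the 2 groups did not overlap in any of them except Sema5a at 8 h. Signs and overlap were read on the same arrays that gave the calls, so they add no support to them. The share of all genes called at 1 time or more was not computed, nor were signs and overlap over all called genes.

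Plxnc1 was the only member called at all 4 times, always higher with IFNγ. With T3 alone its arrays stood at 8.16, 8.31 and 8.46 at 8 h and had come to 6.39, 7.52 and 7.72 by 24 h, to 6.40, 6.59 and 6.51 by 48 h, and to 5.90, 6.48 and 6.59 by 96 h. With T3+IFNγ they stood, in the same order of times, at 9.37, 9.37 and 9.45, at 8.23, 8.98 and 8.76, at 7.76, 8.26 and 8.17, and at 7.70, 7.63 and 7.89. At 8 h the T3+IFNγ arrays lay above the PDGF arrays as well, and at 96 h they overlapped the PDGF arrays while those with T3 alone lay under them. The difference was 1.09 ± 0.25 (SE) at 8 h, 2.13-fold (limma adjusted p = 0.00707), then 1.45 at 24 h, 2.73-fold (adjusted p = 0.000226), 1.56 at 48 h, 2.95-fold (adjusted p = 7.78e-05) and 1.42 at 96 h, 2.67-fold (adjusted p = 0.000245). The call at 8 h was lost without donor 2 (adjusted p = 0.226) or donor 3 (0.128), with differences of 1.10 and 1.13. The second probe set of Plxnc1 gave 0.98, 1.45, 1.55 and 1.57, all called.

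Markers of microglia and macrophages were higher with IFNγ, as was Plxnc1, which is also known from myeloid cells. Of the 12 markers, 1, 4, 5 and 7 were higher with IFNγ at 8, 24, 48 and 96 h and none was lower, and 10 had fallen from their PDGF level by 96 h of T3. Their summed signal (log2) was 10.74 to 12.12 with T3 and 11.24 to 12.61 with T3+IFNγ at 8 h, 9.89 to 11.48 and 11.54 to 13.20 at 24 h, 9.21 to 10.59 and 11.16 to 13.42 at 48 h, and 8.75 to 9.38 and 10.60 to 12.79 at 96 h. At 8 h the groups overlapped in this sum, and within each donor it was higher with IFNγ. Cx3cr1 and Itgam stayed below the detection limit throughout. The part of these cells in the Plxnc1 result was not tested.

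**Figure D4:**
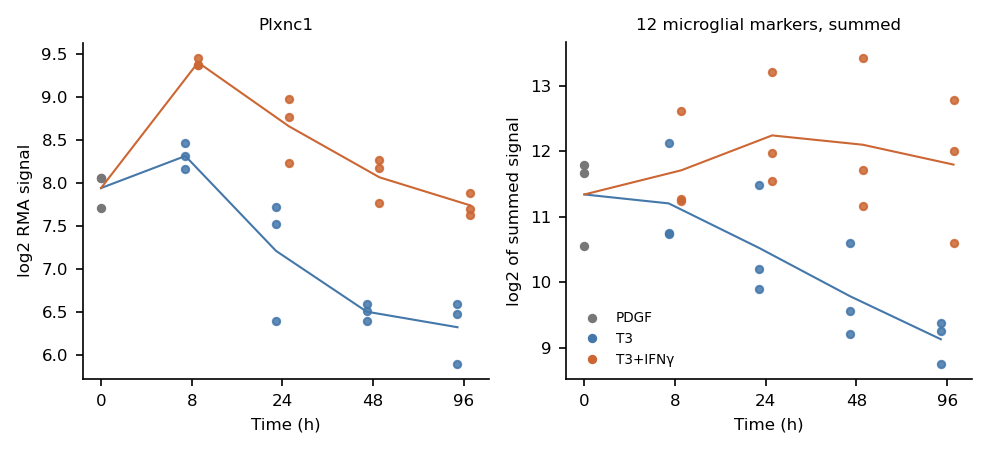
Signal of Plxnc1 (left) and log2 of the summed signal of 12 markers of microglia and macrophages (right) on each array, with time in h across, evenly spaced and not to scale. Points are arrays (PDGF grey, T3 blue, T3+IFNγ orange) and lines join group means. Plxnc1 with T3+IFNγ lies above T3 at every time, and the marker sum does so without overlap from 24 h.

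Promoters are shown for Plxnc1, called higher with IFNγ at all 4 times, and for Ephb1, called lower at the first and the last but not at 48 h. They were the only members called with IFNγ at both the first and the last time. Interferon regulatory factors, a family of factors that act downstream of interferons, bind sites that repeat GAAA with 2 bases between. These letters were searched on both strands from 250 bases before to 50 bases after the start of each gene in the RefSeq annotation of GRCr8, a window of 300 bases. Of the 56 members, 42 have an entry. The pattern was found in 2 of the 42 (4.76%), Plxnc1 and Sema6a, against 3.77% of 27457 promoters in all. Sema6a was not among the 15 members called with IFNγ. In Plxnc1 (chr7:31430556-31430855, minus strand) the pattern lies 118 to 109 bases before the start and is in capitals. Ephb1 (chr8:111823710-111824009, minus strand) does not hold it. A match of letters is a description of the sequence and not a measured site.
Plxnc1: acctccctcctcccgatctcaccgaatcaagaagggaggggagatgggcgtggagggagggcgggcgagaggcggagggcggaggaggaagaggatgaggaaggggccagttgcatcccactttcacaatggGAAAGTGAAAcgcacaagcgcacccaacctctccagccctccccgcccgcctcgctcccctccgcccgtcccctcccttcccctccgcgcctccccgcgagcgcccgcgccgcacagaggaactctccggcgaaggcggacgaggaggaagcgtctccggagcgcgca
Ephb1: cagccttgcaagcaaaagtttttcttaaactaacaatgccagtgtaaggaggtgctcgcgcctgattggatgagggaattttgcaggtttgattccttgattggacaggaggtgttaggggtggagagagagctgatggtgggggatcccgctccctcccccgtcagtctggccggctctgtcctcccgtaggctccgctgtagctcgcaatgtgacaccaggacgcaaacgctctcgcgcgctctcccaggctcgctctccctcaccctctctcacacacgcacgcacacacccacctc

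Ephb1 was lower at 8, 24 and 96 h, and like Sema3d was called lower at 3 of the 4 times. With T3+IFNγ its arrays stood at 6.88, 6.92 and 6.77 at 8 h, then at 7.88, 7.23 and 7.28 by 24 h, at 9.18, 9.46 and 9.38 by 48 h, and at 8.03, 7.90 and 7.86 by 96 h, beside the T3 values given above. At 8 h they lay below the PDGF arrays too, at 48 h they came near the T3 arrays, and at 96 h they were far below them again. The difference was −1.16 ± 0.20 (SE) at 8 h, 2.24-fold lower (limma adjusted p = 0.000286), −1.09 at 24 h, 2.13-fold lower (adjusted p = 0.000414), and −1.49 at 96 h, 2.82-fold lower (adjusted p = 6.37e-06). Without donor 2 the adjusted p at 8 h was 0.0529. Ephb3, which fell with T3, was higher with IFNγ at 24 h by 0.45 (adjusted p = 0.0301), at 7.94, 7.67 and 7.66 against 7.23, 7.27 and 7.42, and lost the call without donor 1 (0.237), without donor 2 (0.259) or without the T3+IFNγ array of donor 2 (0.0509).

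Of the 8 semaphorins that rose with T3 at 1 time or more, 4 were called lower with IFNγ and 4 (Sema3e, Sema6a, Sema6b and Sema6c) were not. Both comparisons share the T3 arrays, so this count is a description, and the matching share among all genes that rose with T3 was not computed. Sema3d stood at 7.64, 6.71 and 7.03 at 8 h, then at 8.05, 7.64 and 8.17 by 24 h, at 8.92, 8.72 and 8.56 by 48 h, and at 8.98, 9.06 and 8.97 by 96 h. All of these lay below the T3 arrays of the same hour, with a gap that was widest at 24 h and not called at 96 h. The difference was −0.81 ± 0.19 (SE) at 8 h (1.75-fold lower, limma adjusted p = 0.0103), −1.32 at 24 h (2.51-fold lower, adjusted p = 2.84e-05) and −0.74 at 48 h (adjusted p = 0.00891). The calls at 8 h and 48 h were lost without donor 3 (adjusted p = 0.236 and 0.241), and that at 8 h also without donor 2 (0.180) or its T3+IFNγ array alone (0.0804).

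Sema5a stood at 6.34, 5.51 and 5.11 with T3+IFNγ at 8 h and at 9.58, 9.91 and 9.01 at 24 h, and at 48 h it had reached 10.36, 10.25 and 10.07, at the level with T3 alone. At 8 h the highest T3+IFNγ array lay above the lowest T3 array, and at 24 h the groups were apart. The difference was −1.08 ± 0.31 (SE) at 8 h (at least 1.54-fold lower, limma adjusted p = 0.0440) and −0.97 at 24 h (1.95-fold lower, adjusted p = 0.0448). Both calls were lost without donor 2 (0.397 and 0.244), donor 3 (0.177 and 0.284) or the T3+IFNγ array of donor 2 at 48 h, which enters the shared spread (0.0533 and 0.0515), and that at 8 h also without the T3+IFNγ array of donor 2 (0.150) and with the mean of all its probe sets (−0.39, 0.161). At 48 h the brightest probe set changed by −0.11, which was not called, while 2 dimmer ones were lower by 0.72 (adjusted p = 0.00492) and 0.83 (adjusted p = 0.000947).

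Sema4d stood at 6.44, 5.72 and 6.19 with T3+IFNγ at 48 h and at 7.91, 8.55 and 8.33 at 96 h. Both sets lay below the T3 arrays of the same hour. It was lower by 1.43 ± 0.23 (SE) at 48 h, or 2.70-fold (limma adjusted p = 0.000119), a call kept without any 1 donor. The fourth, Sema6d, was lower by 0.55 at 24 h (adjusted p = 0.0295) and by 0.76 at 48 h (adjusted p = 0.0023), with arrays at 10.60, 10.45 and 10.75 against 11.48, 11.42 and 11.18 at 48 h. Its call at 24 h was lost without donor 2 (0.115) or donor 3 (0.189) and that at 48 h without donor 2 (0.117). Sema4b, a transmembrane semaphorin, was higher with IFNγ by 0.47 at 24 h (adjusted p = 0.0249) and 0.53 at 48 h (adjusted p = 0.00823), with 7.0, 6.89 and 6.92 against 6.25, 6.39 and 6.57 at 48 h. The former call was lost whichever donor was left out (highest adjusted p 0.193) or without the T3+IFNγ array of donor 2 (0.0997), and the latter without donor 1 (0.0880) or donor 2 (0.0666).

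Efna1 was lower with IFNγ at 96 h alone, at 7.71, 7.76 and 7.68 against 9.28, 8.71 and 8.92 with T3. The groups were far apart, and the T3+IFNγ arrays still lay above the PDGF arrays. The difference was −1.25 ± 0.31 (SE), 2.39-fold lower (limma adjusted p = 0.00752), with adjusted p values of 0.0669 without donor 2 and 0.111 without donor 3. Its second probe set was lower by 1.02 (adjusted p = 0.00172). Markers of mature oligodendrocytes were also lower with IFNγ. Of 9, with T3+IFNγ 0, 3, 5 and 6 were lower at 8, 24, 48 and 96 h and none was higher, and their summed signal was 13.56 to 14.03 at 24 h against 14.08 to 14.65 with T3, and 15.01 to 15.27 at 48 h against 15.40 to 15.69. At 8 h, when Sema3d and Sema5a were called lower, the sums overlapped (11.97 to 12.70 with T3+IFNγ, 12.17 to 13.15 with T3). Within donor 1 the sum went from 13.15 with T3 to 12.70 with T3+IFNγ. In donor 3 it went from 12.17 to 11.97, and in donor 2 from 12.24 to 12.27. At 96 h, when 6 markers were lower, no semaphorin was called. The T3+IFNγ arrays of Sema3c, Sema3d, Sema3e, Sema3f and Sema4d nevertheless all lay below the T3 arrays of that hour, and those of the other semaphorins overlapped them. The part of the marker shift in the results of the ligands was not tested.

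The netrin receptor Unc5c was higher with IFNγ at 48 h, at 8.44, 8.56 and 8.31 against 7.49, 7.58 and 7.24 with T3. The T3 arrays of that hour lay near the PDGF arrays (7.29, 7.34 and 7.20) while those with IFNγ did not. The difference was 1.0 ± 0.21 (SE), or 2.00-fold (limma adjusted p = 0.00145), kept without any 1 donor, and at 24 h Unc5c was called only with donors as blocks. Plxnb1, a receptor of Sema4d, was higher by 0.67 at 48 h (adjusted p = 0.0207), at 7.64, 8.15 and 8.02 against 6.94, 7.36 and 7.50, and lost the call without donor 2 (0.149), donor 3 (0.144) or the T3+IFNγ array of donor 2 at 48 h (0.109). With donors as blocks, the members higher with IFNγ numbered 5 at 24 h, with Sema4g and Unc5c added, and 7 at 48 h, with Ntn1 (adjusted p = 0.0368), Plxnb2 (0.0399) and Sema3c (0.0243) added. In that fit Plxna3 (0.0259) and Sema3e (0.0232) were also lower at 24 h, and Sema6a (0.0219) and Unc50 (0.0367) at 48 h.

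Of the members below the detection limit, 4 were lower with IFNγ. Slit2 stood at 4.71, 4.63 and 4.80 against 6.0, 5.50 and 5.08 at 48 h, a difference of −0.81 ± 0.17 (SE) (limma adjusted p = 0.00138), lost without donor 1 (0.0536) or donor 2 (0.0905). The A-class Eph receptors Epha7 at 24 h (−0.61, adjusted p = 0.000572) and Epha10 at 8 h (−0.43, adjusted p = 0.0134) and the slit receptor Robo1 at 48 h (−0.33, adjusted p = 0.0206) were the others. Epha7 lost the call without donor 2 (0.0535), Epha10 without donor 2 (0.0916), donor 3 (0.319) or the T3+IFNγ array of donor 2 (0.110), and Robo1 without donor 2 (0.127) or donor 3 (0.390). All 5 calls with IFNγ at 8 h were thus lost when 1 donor or another was left out, against 5 of 8 at 24 h, 6 of 9 at 48 h and 1 of 3 at 96 h.

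**Figure D5:**
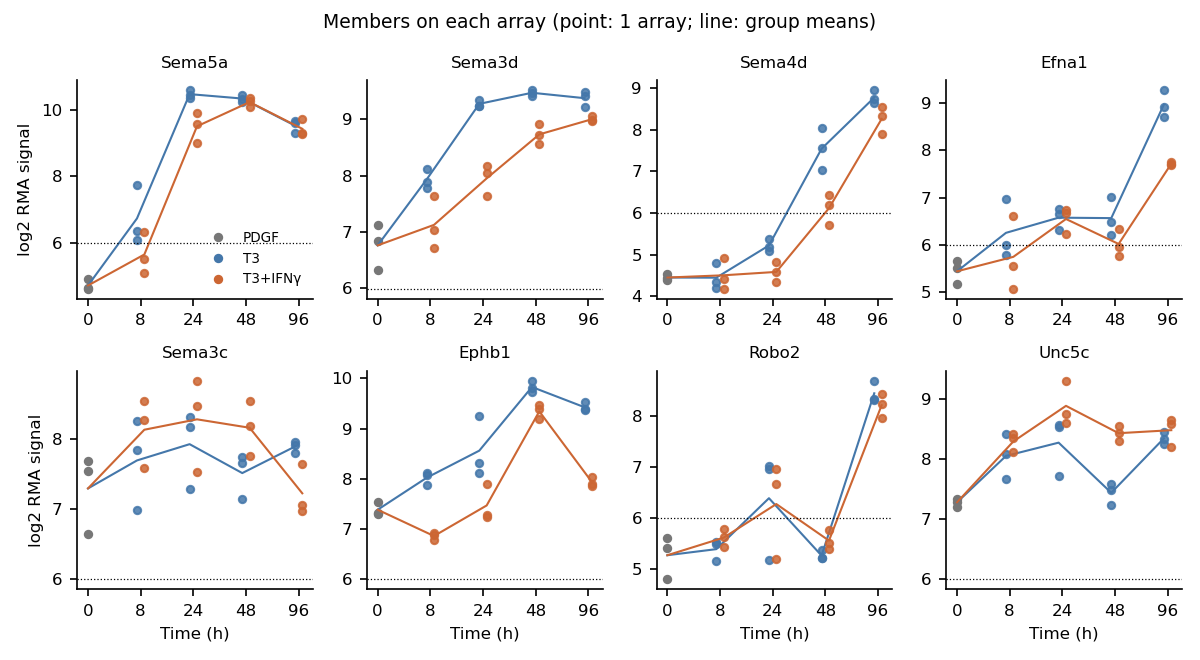
Signal (log2 RMA) of 8 members on each array, with time in h across, evenly spaced and not to scale. Points are arrays (PDGF grey, T3 blue, T3+IFNγ orange), lines join group means and the dotted line is the median of all values. Sema5a, Sema3d, Sema4d, Efna1 and Ephb1 rise with T3 and are lower with IFNγ at 1 time or more, while Robo2 with IFNγ follows T3.

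Whether the change with IFNγ differed between 96 and 8 h was tested as an interaction. No member was called higher, against 2.24% of all genes, and none lower, against 2.08% (limma, adjusted p under 0.05), and 6 had an unadjusted p under 0.05: Epha7, Sema3c, Sema3e, Sema5a, Sema6d and Unc5b. The smallest of these p-values was that of Epha7 (difference −0.46, adjusted p = 0.117), which is below the detection limit. Sema3c, a secreted semaphorin, is described because donors as blocks changed its call. With T3 its arrays stood at 6.98, 7.84 and 8.26 at 8 h, and with T3+IFNγ they stood at 7.59, 8.27 and 8.54. By 96 h the T3 arrays read 7.96, 7.81 and 7.92, and the T3+IFNγ arrays 6.98, 7.05 and 7.64. The change with IFNγ was positive in each donor at 8 h and negative in each at 96 h. The interaction was −1.11 ± 0.52 (SE) with an adjusted p of 0.285, and of 0.0185 with donors as blocks, where Sema3c was also called lower at 96 h (0.0231), one of the 2 members that raised that count from 2 to 4.

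The partners of these molecules (co-receptors, adhesion molecules and the kinases, collapsin response mediators and small GTPase regulators downstream) were followed as a list of 69 genes, of which 65 were measured. The semaphorin co-receptors Nrp1 and Nrp2 and the netrin receptor Dcc were among 11 partners below the detection limit in every group. With T3, 3, 18, 19 and 17 of the 65 were higher at 8, 24, 48 and 96 h (all genes 7.31%, 17.1%, 17.5% and 23.4%) and 3, 11, 22 and 21 lower (all genes 5.37%, 17.8%, 25.7% and 29.5%). At 96 h the largest called changes were in Nfasc (5.42), an adhesion molecule of myelinating cells and axons, in Tnr (4.05), a matrix protein of oligodendrocytes, in Chn2 (3.74), a Rac regulator, and in Sdc1 (−3.50), a heparan sulphate proteoglycan. With IFNγ, 3, 4, 5 and 4 were higher at the 4 times (all genes 3.69%, 5.96%, 7.58% and 7.91%). In the same order, 1, 4, 9 and 3 were lower (all genes 1.58%, 6.35%, 8.53% and 5.63%).

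By time, the called partners with the largest changes with IFNγ were Nrcam (1.66), Dpysl4 (1.54), Flrt1 (−1.18) and Enah (0.59) at 8 h. At 24 h they were Nfasc (−1.21), Chn2 (−1.0), Vcan (−0.98) and Pak1 (0.89), and at 48 h Pak1 (1.41), Mical1 (−0.88), Mical3 (−0.83) and Abl1 (−0.79). At 96 h they were Enah (0.82), Neo1 (−0.55), Tiam1 (−0.52) and Flrt2 (0.50), while Nrp1 (0.85, adjusted p = 0.0838) and Vcan (−0.60, 0.0643) were not called. Nrcam is an adhesion molecule that partners with semaphorin receptors, Neo1 is a netrin receptor related to Dcc, Pak1 is a kinase downstream of Rac, and Mical1 and Mical3 are oxidases downstream of plexins. Nfasc and Chn2, both among the partners that rose with T3, were lower with IFNγ at 24 h.

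Members called in none of the 8 comparisons, without donor blocks or median centring, numbered 23 of 56 (the matching share of all genes was not computed). Of these, 16 were below the detection limit, and the 7 that were detected were Sema3c, Sema3f, Efnb3, Epha2, Epha4, Plxna4 and Plxnd1. For Sema5a at 48 h, as given above, and for 5 other members, Epha3 among the 23, a dimmer probe set passed the test while the brightest did not. Plxna2 was lower with T3 at 8 h by its other probe set (−0.69, limma adjusted p = 0.00774), Unc5c higher at 48 h (0.72, adjusted p = 0.0181), and Epha3 higher at 96 h (0.49). Sema6a was lower with IFNγ at 96 h (−0.48), and Slit2 was higher with T3 (0.28) and lower with IFNγ (−0.37) at 96 h. No 2 probe sets of a member were called in opposite directions.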

How the data were processed

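Gene expression had been measured with Affymetrix rat genome arrays, 27 in all, 3 for each of 9 groups. The deposited table holds log2 signals that the authors computed with RMA (background correction, quantile normalization and probe set summary), and the submitters' notes also name limma, both without a version. RMA makes array medians alike (5.95 to 6.03 here, with values from 2.28 to 14.5), so a shift common to all genes would not be seen. The genome build was not given in the sources used here. Groups and donors were read from the labels.

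Of 31099 probe sets, 57 controls were set aside, and the platform annotation of 2016 names 1 symbol for 20832, several for 436 and none for 9831. Only probe sets with 1 symbol were used, and the one with the highest mean stood for its gene (14217 genes). All 56 members were found in RefSeq by Entrez identifier, and 22 have more than 1 probe set. A model with a mean for each of the 9 groups was fitted to the 27 arrays together (lmFit and eBayes of limma 3.58.1 in R 4.3.3), with Benjamini-Hochberg adjustment over all genes within each comparison. The step was tested on simulated data. Tables were made with NumPy 2.4.6 and pandas 2.3.3 under Python 3.11.15, and plots with matplotlib 3.10.9. The number of arrays limits the precision, and the most alike pair of arrays correlated at 0.997.

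The labels name the donor of each array, and deviations from the group means had a median correlation of 0.31 within donors and −0.171 across donors, so donors as blocks were an alternative for every result. Other alternatives were median centring, a filter on low values, the mean of a gene's probe sets, and leaving out each donor in turn.

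The members and lists were chosen with earlier results of these data known. Full values go to the 4 called members with the largest changes in each IFNγ comparison and the 6 largest rises and falls with T3 at 96 h, all with the same sign in 3 donors. Other members called with IFNγ are named with their change, and of the partner list the 4 largest called changes in each of these comparisons. A further letter pattern searched in the promoters is not reported here.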

Additional observations from a re-analysis of the deposited data

Results flagged for a closer look

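A reversal of sign between times was looked for in the change with IFNγ: every donor moving one way at one time and the other way at another. It was seen for 16 pairs of times in 9 detected members. The share of all genes with such a reversal was not computed, so the count cannot be read as a trait of the members. No size was required, and some donors moved very little, by 0.003 for Plxnd1 at 48 h, 0.0127 for Epha2 at 24 h and 0.018 for Ephb3 at 8 h. Of the 16 pairs, 4 join 8 with 96 h (Epha4, Robo2, Sema3c and Sema3e). They belong to the interaction of the report, in which no member was called without donor blocks. In the other 12 pairs, in 8 members, the difference between the times was not tested. Values are the later change minus the earlier one in log2 units. For Sema3c the change at 96 h was lower than that at 24 h by a difference of −1.03 and than that at 48 h by a difference of −1.32. For Plxnd1 the change differed by −0.573 between 8 and 48 h and by 0.778 between 48 and 96 h. For Ephb3 the values were 0.628 from 8 to 24 h and −0.563 from 24 to 96 h, with the change at 24 h called. Sema3e (−0.705) and Epha2 (−0.533) differed from 8 to 24 h. Robo2 (−0.528) and Plxna1 (0.35) differed from 48 to 96 h. For Sema6c the values were −0.341 from 24 to 48 h and −0.273 from 24 to 96 h.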

How the results depend on the processing

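The 37 changes named with full values or called with IFNγ never changed sign under any alternative run. Under the donor block or median centring, all 37 stayed called, with the filter on low values the 33 that pass it, and with the mean of a gene's probe sets 36, Sema5a at 8 h being lost (−0.39). Without donor 1, 2 or 3, the calls lost numbered 4, 16 and 11. Without the T3+IFNγ arrays of donor 2 at 8 and 24 h, an alternative chosen after seeing the data, 5 were lost, and with IFNγ 1 member was lower at 8 h and 1 higher at 24 h, while with T3 2 were lower at 8 h. Without the T3+IFNγ array of donor 2 at 48 h, also chosen after seeing the data, 3 were lost (Sema5a at 8 and 24 h, Plxnb1 at 48 h).

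The replicate block (donors paired across groups) gave 5 members higher with IFNγ at 24 h, 7 higher at 48 h and 4 lower at 96 h, 3 lower with T3 at 8 h, and 1 lower (Sema3c) in the interaction. It changed no other count by over 1.5 times, and removed no call among the 37. Outside the 37, median centring ended the calls of Ephb1 at 8 h and Plxnb1 at 48 h with T3. It added calls with T3 for Plxnd1, Sema3f and Unc50 at 48 h and for Epha8 at 96 h. It gave 4 members lower with IFNγ at 96 h, and the mean of probe sets gave 2 lower with T3 at 8 h.

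Leaving out each donor in turn, members higher with IFNγ ranged from 0 to 1 at 8 h, 1 to 2 at 24 h, 2 to 5 at 48 h and 1 to 2 at 96 h, and members lower from 0 to 4, 2 to 7, 2 to 7 and 1 to 3. With T3, members higher ranged from 2 to 3 at 8 h and 8 to 16 at 24 h, and members lower at 8 h from 0 to 1. In the interaction, members lower ranged from 0 to 1. Each such fit has 2 arrays a group, and signals near the detection limit bound what small changes can be seen.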
